A study of Homo sapiens with 30 samples.

Results

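Among all stretches of open chromatin mapped in the human embryonic stem cell line H1 and in early neural cells made from it, 6117 were present in the anterior-derived midbrain population (aNE_M) and in none of the 9 other populations. They were chosen from the peak positions alone. Peaks of the 10 lists on chromosomes 1 to 22 were merged wherever they overlapped by at least 1 bp, which gave 476170 regions, and a list was open at a region where it had a peak. The aNE_M-only regions made up 1.28% of all merged regions and 3.08% (95% Wilson interval 3.00 to 3.15) of the 198810 regions open in aNE_M. Presence and absence of peaks made the selection, so the numbers of exclusive regions describe the lists and carry no test.

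All 10 groups were wild-type H1 cells, a single embryonic stem cell line, profiled by OmniATAC-seq on 50000 cells per library, with 3 libraries per group and 30 in all. The hPSC group is the undifferentiated line at day 0, and the DE group is definitive ectoderm at day 1. DE medium held A8301, Trametinib, C59 and LDN193189, which inhibit TGF-beta receptors, MEK, WNT secretion and BMP receptors. From DE, anterior neural ectoderm (aNE) was made by day 2 with A8301, LDN193189 and C59. Posterior neural ectoderm (pNE) was made over the same day with A8301, LDN193189, FGF2, the synthetic retinoid TTNPB and XAV939, which blocks tankyrase and thereby WNT signalling. Both received Thiazovivin, a survival aid after replating. Each was then kept to day 4 in telencephalon, midbrain or hindbrain medium, giving aNE_T, aNE_M, aNE_H, pNE_T, pNE_M and pNE_H. Of the day 4 media only a forebrain recipe is given in part (XAV939, LDN193189 and FGF2), and the make-up of the midbrain medium is not given in the sources used here. Populations are named by their medium, and no sort of the cells is described. For the longer cultures the posterior protocol replated cells more densely than the anterior one, so origin and density cannot be told apart.

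Each group had 1 list of peak positions without height, score or replicate value. The spread between replicates therefore could not be measured, intervals below cover counting error only, and read depth is unknown. A peak carried by few cells and a peak that is weak in all cells cannot be told apart in such bulk material. Only peaks near midbrain genes, not their RNA, could be set against the midbrain label.

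Open chromatin marks DNA that the Tn5 transposase can reach, mainly promoters and distal elements such as enhancers. Distal elements differ more between related cell types than promoters do. In the embryonic neural plate, OTX2 marks forebrain and midbrain, GBX2 marks the hindbrain in front, and their border becomes the isthmic organizer, a signalling centre that makes WNT1 and FGF8 and expresses EN1, EN2, PAX2, PAX5 and LMX1B. WNT signals, read out by TCF/LEF factors, push neural tissue towards posterior fates.

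The sequences that could be read lay where an aNE_M-only region covered bases before the start of an annotated transcript, and 28 such stretches had a sequence. Of these, 6 are shown as examples of DNA that was open in this population alone. They are RefSeq sequences of GRCh38.p14, written 5′ to 3′ on the strand of the gene, and capitals mark matches to the motifs listed further on. The first 3 belong to the widest of these regions with at least 100 bases before the start, and the others were chosen after their values were seen. LOC441179 is a long noncoding RNA, shown at chr6:167795418-167795528 on the plus strand, inside another long noncoding gene, LINC01558. LOC105369960 is a long noncoding RNA at chr12:105783696-105783922 on the plus strand, outside other genes. LOC101928929 is a long noncoding RNA at chr4:185902705-185902947 on the plus strand, inside the coding gene SORBS2. CAPN9, a calpain protease gene, is shown at chr1:230747282-230747387 on the plus strand. PAMR1, which codes for a secreted protein with a peptidase-like domain, is shown at chr11:35530301-35530396 on the minus strand. LOC107986068 is a long noncoding RNA at chr3:20905412-20905519 on the plus strand.
LOC441179: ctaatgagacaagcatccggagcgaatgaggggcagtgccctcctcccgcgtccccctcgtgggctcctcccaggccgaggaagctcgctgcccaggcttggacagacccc
LOC105369960: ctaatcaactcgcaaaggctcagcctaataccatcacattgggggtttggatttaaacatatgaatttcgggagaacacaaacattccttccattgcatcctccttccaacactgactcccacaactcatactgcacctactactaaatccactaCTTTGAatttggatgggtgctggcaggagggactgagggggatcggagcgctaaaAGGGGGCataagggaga
LOC101928929: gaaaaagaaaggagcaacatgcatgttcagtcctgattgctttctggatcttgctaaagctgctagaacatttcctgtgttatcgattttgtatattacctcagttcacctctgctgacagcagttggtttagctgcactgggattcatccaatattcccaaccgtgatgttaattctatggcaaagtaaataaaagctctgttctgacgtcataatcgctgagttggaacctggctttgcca
CAPN9: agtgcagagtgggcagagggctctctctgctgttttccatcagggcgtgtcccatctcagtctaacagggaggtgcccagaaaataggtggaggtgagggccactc
PAMR1: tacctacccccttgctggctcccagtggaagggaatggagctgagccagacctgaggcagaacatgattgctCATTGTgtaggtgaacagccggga
LOC107986068: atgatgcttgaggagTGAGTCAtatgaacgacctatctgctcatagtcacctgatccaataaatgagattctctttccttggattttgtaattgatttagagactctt

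The LOC105369960 stretch held a TCF/LEF match and a CTCF match, the PAMR1 stretch a SOX match and the LOC107986068 stretch an AP-1 match. The LOC441179, LOC101928929 and CAPN9 stretches held none of the motifs searched. The nearest peak of any other list was in DE, 438 bp from the LOC441179 region, and in pNE, 6664 bp from the LOC105369960 region. At LOC101928929 it was a pNE_H peak at 3490 bp, at CAPN9 a pNE_T peak at 76 bp, at PAMR1 a pNE_H peak at 634 bp and at LOC107986068 a DE peak at 313 bp. All 6 regions thus had chromatin open in another population within 6664 bp.

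Set beside lists of like length, aNE_M had few exclusive regions. Its list held 211358 peaks on chromosomes 1 to 22, and that of pNE_M, the midbrain-medium population of posterior origin, held 209967, a ratio of 0.993. Yet pNE_M had 17167 exclusive regions, 8.80% (8.67 to 8.92) of its open regions and 2.81 times as many as aNE_M. The neighbours of the same origin were closer to aNE_M, with 6155 exclusive regions (3.39% of open regions) in aNE_T and 8683 (4.69%) in aNE_H. These made up 1.29% and 1.82% of all merged regions, against 3.61% for pNE_M.

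The order of the 10 lists by exclusive share ran from aNE (1.60%) and pNE (2.13%) through aNE_M, aNE_T, aNE_H, pNE_T (8.33%), pNE_M, hPSC (11.3%) and DE (11.7%) to pNE_H (17.3%). The pNE_H list was also the longest, with 302355 peaks, and aNE the shortest, with 162041. When each list was cut to its 162041 widest peaks, aNE_M had 4679 exclusive regions (3.03%), against 6779 in aNE_T, 9307 in aNE_H and 15768 in pNE_M, so the order of these 4 lists by share was as before with equal lengths. These are not all among the 6117, since shortening the other lists also makes regions exclusive. Without pNE_H in the series, 9004 regions (4.49%) were open in aNE_M only and 7565 (4.15%) in aNE_T only, so that aNE_M then stood above aNE_T, and still below aNE_H (6.35%) and pNE_M (14.2%).

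**Figure D1:**
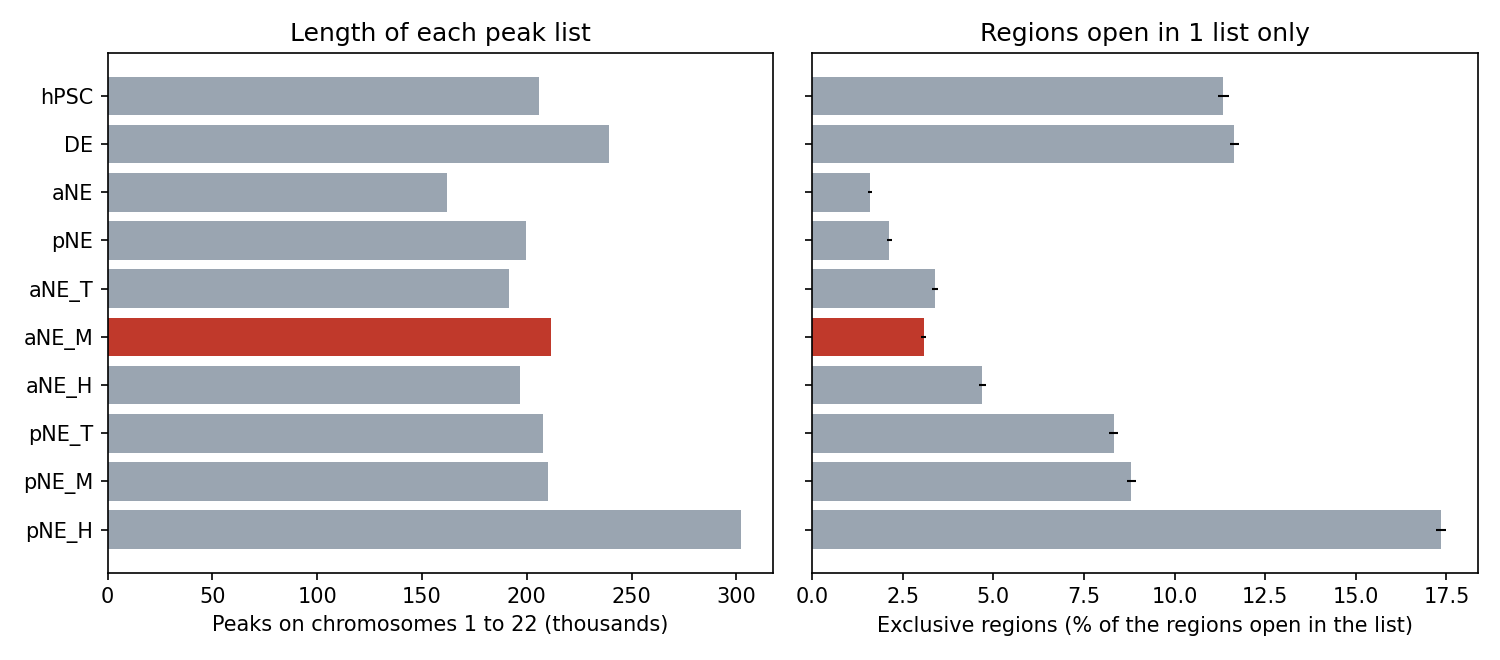
Number of peaks on chromosomes 1 to 22 (left, axis in units of 1000) and regions open in 1 list only as a percent of the regions open in that list (right, with 95% Wilson intervals that cover counting only), for the 10 lists, with aNE_M in red. The aNE_M bar is close in length to that of pNE_M on the left, while on the right it stands at 3.08% against 8.80%.

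Most chromatin open in aNE_M was open widely. All 10 lists were open at 78808 regions, 39.6% of those of aNE_M, and the numbers fell steadily with fewer lists, to 20133 regions open in 9 lists, 11122 in 3 and 8785 in 2. The exclusive regions were the smallest of these classes.

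The regions that aNE_M shared with exactly 1 other list show which population it most often had alone as a partner. The most frequent partner was pNE_H, with 2467 of the 8785 regions (28.1%), followed by aNE_H with 2099 (23.9%) and aNE_T with 1364 (15.5%). As a share of the partner's own open regions, aNE_H came first with 1.13%, before pNE_H with 0.850% and aNE_T with 0.752%. The other midbrain-medium list, pNE_M, was the sole partner at only 510 regions, 0.261% of its open regions. The direct precursor aNE was the sole partner at 119 regions, 0.0782% of its open regions, the lowest of the 9 by either measure. This was not particular to aNE_M. The aNE list was also the lowest sole partner of aNE_H (101 regions, 0.0663%) and of pNE_M (75, 0.0493%), but not of aNE_T (465, 0.305%). Sole-partner counts leave out regions open in further lists. With those included, 124311 of the 152250 open regions of aNE were open in aNE_M. For aNE_H these were 153994 of 185170, for aNE_T 147373 of 181467 and for pNE_M 136626 of 195120.

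Hindbrain medium from the same origin was thus the most frequent sole partner per open region, and the same medium from the other origin was not. In contrast, pNE_M had pNE_H as sole partner at 9906 of its 14271 regions open in exactly 2 lists (69.4%), so no partner of aNE_M was as frequent as that. The 2 neighbours of aNE_M shared little with each other alone, with 271 regions open in aNE_T and aNE_H only. Among regions open in aNE_M and exactly 2 other lists, the combination with pNE and aNE_H was the most frequent at 1691 regions, ahead of aNE_H with pNE_H at 1446 and pNE_M with pNE_H at 945.

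**Figure D2:**
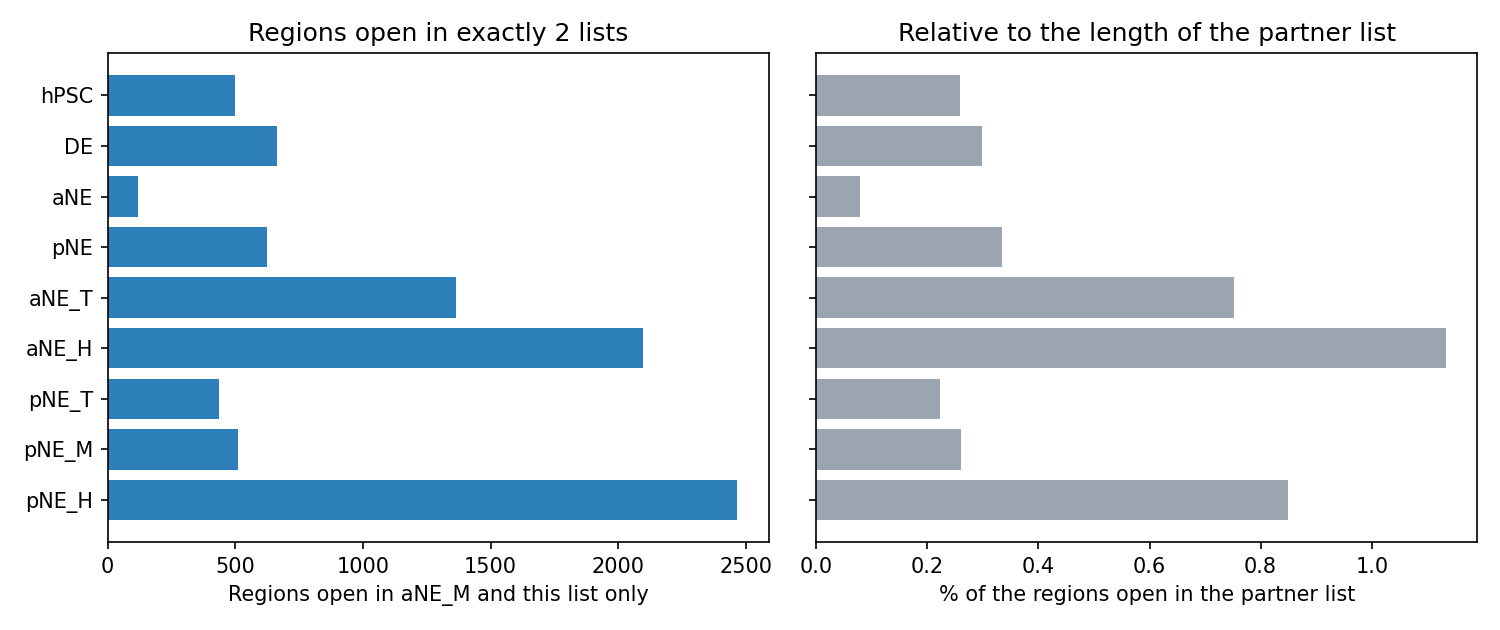
Regions open in aNE_M and exactly 1 other list, by that list, as a number (left) and as a percent of the regions open in the partner list (right). The pNE_H bar is the longest on the left at 2467 and the aNE_H bar the longest on the right at 1.13%, while aNE is the shortest on both sides.

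The aNE_M-only regions were narrow. Each was a single peak, with a median width of 152 bp (quartiles 127 and 191) and a widest of 536 bp. The other aNE_M peaks had a median of 293 bp (quartiles 189 and 519) and a widest of 3359 bp. At the narrowest width in the list, 122 bp, lay 1212 of the exclusive regions (19.8%) and 6508 of the other peaks (3.17%). Narrow peaks at the lower limit of the list were therefore more frequent among the exclusive regions. Narrow exclusive regions were not particular to aNE_M. Median widths were 159 bp for aNE_T-only, 162 bp for aNE_H-only and 166 bp for pNE_M-only regions. Of these, 16.7%, 15.6% and 13.6% lay at the narrowest width of their list. The part of such narrow peaks in the result was not tested, since no peak heights were used here.

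The share of peaks that were exclusive fell at every step of width. Of the 20792 aNE_M peaks of 122 to 139 bp, 11.5% (11.1 to 12.0) were in no other list, of those of 200 to 249 bp 2.98%, and of those of 400 to 599 bp 0.0989%. None of the 41783 peaks of 600 bp or more was exclusive, which allows a share of up to 0.00718% by a limit of 3 counts and 0.00919% by the Wilson interval. Wide peaks of aNE_M were thus all shared with at least 1 other population at this overlap.

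The fall with width was less complete in pNE_M, where 19.5% of peaks of 114 to 139 bp and still 0.670% (0.591 to 0.758) of those of 600 bp or more, 247 peaks, were exclusive. In aNE_T 8 such wide peaks were exclusive and in aNE_H 6. Within each class of width, the aNE_M share was below those of aNE_H and pNE_M. Below 140 bp it was close to that of aNE_T, 11.6% (11.2 to 12.1), and from 140 bp on it lay below it in each class.

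**Figure D3:**
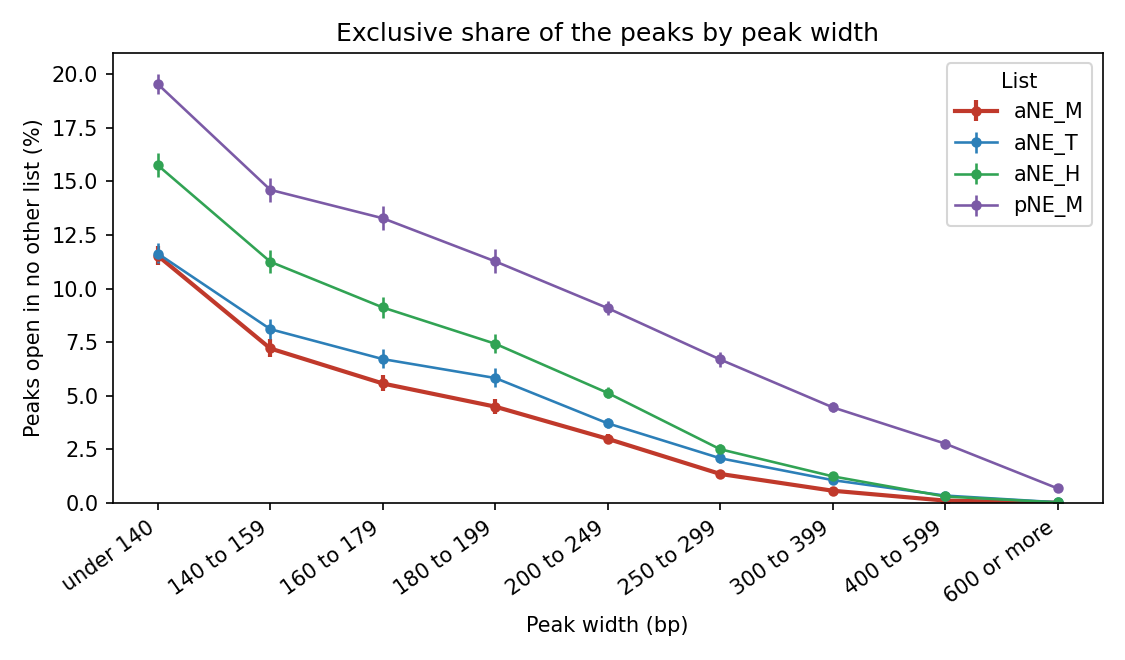
Percent of the peaks of a list that overlapped no peak of the 9 other lists, by peak width in bp, for aNE_M (red, heavy line), aNE_T, aNE_H and pNE_M, with 95% Wilson intervals that cover counting only. All lines fall with width, from 11.5% to 0 in aNE_M and from 19.5% to 0.670% in pNE_M.

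The 10 widest regions, from 442 to 536 bp, lay away from promoters of coding genes. The widest was at chr10:83578926-83579461, outside genes, with the nearest coding gene GHITM, a mitochondrial inner membrane protein gene, 560047 bp away. A region of 511 bp at chr1:74357729-74358239 lay inside TNNI3K, a cardiac kinase gene, and one of 508 bp at chr1:3290282-3290789 lay inside PRDM16, a zinc-finger regulator gene active in neural progenitors. A region of 502 bp at chr6:167795418-167795919 covered the start of LOC441179, shown above. Those of 452 bp at chr12:128653217-128653668 and 442 bp at chr12:108990723-108991164 lay inside TMEM132C, a transmembrane protein gene, and SVOP, a synaptic vesicle protein gene. The remaining 4 were intergenic with respect to coding genes. All had a peak of another list nearby, from 68 bp to 4844 bp away, so even the widest were not isolated.

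Most aNE_M-only regions stood close to chromatin that was open in other populations. The median distance to the nearest peak of any other list was 822 bp (quartiles 269 and 2514), 53.7% lay within 1 kb and 88.8% within 5 kb. Only 194 (3.17%) were more than 10 kb from every other list. The regions exclusive to the comparison lists were somewhat more distant, with medians of 1020 bp for aNE_T-only, 1113 bp for aNE_H-only and 1542 bp for pNE_M-only.

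By population, the nearest chromatin was that of pNE_H, at a median of 2007 bp and within 1 kb of 34.9% of the regions. DE followed at a median of 2803 bp, aNE_H at 3110 bp, pNE at 3187 bp, aNE_T at 3391 bp, pNE_T at 3621 bp, pNE_M at 3670 bp and hPSC at 3803 bp. The precursor aNE was the farthest at 4906 bp, with 20.7% within 1 kb. A longer list is nearer to any region, and pNE_H and DE are the longest lists while aNE is the shortest. The nearest and farthest lists were the same for the regions exclusive to aNE_T, aNE_H and pNE_M. In that order their median distances were 2319, 2369 and 2591 bp to pNE_H. To aNE they were 4585, 5579 and 6672 bp. Relative to list length, pNE_H held the nearest peak of 25.5% of the regions with 15.8% of the peaks of the 9 lists, aNE_H of 12.7% with 10.3%, pNE_M of 8.39% with 11.0%, pNE_T of 8.39% with 10.8%, pNE of 7.86% with 10.4% and aNE of 4.12% with 8.46%. The hindbrain-medium lists thus held the nearest peak more often than their share of the peaks. The pNE_M, pNE_T, pNE and aNE lists did so less often. A share of peaks is not an expected value here, because peaks of several lists can lie together and only 1 counts as nearest. These shares were not computed for the comparison lists.

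**Figure D4:**
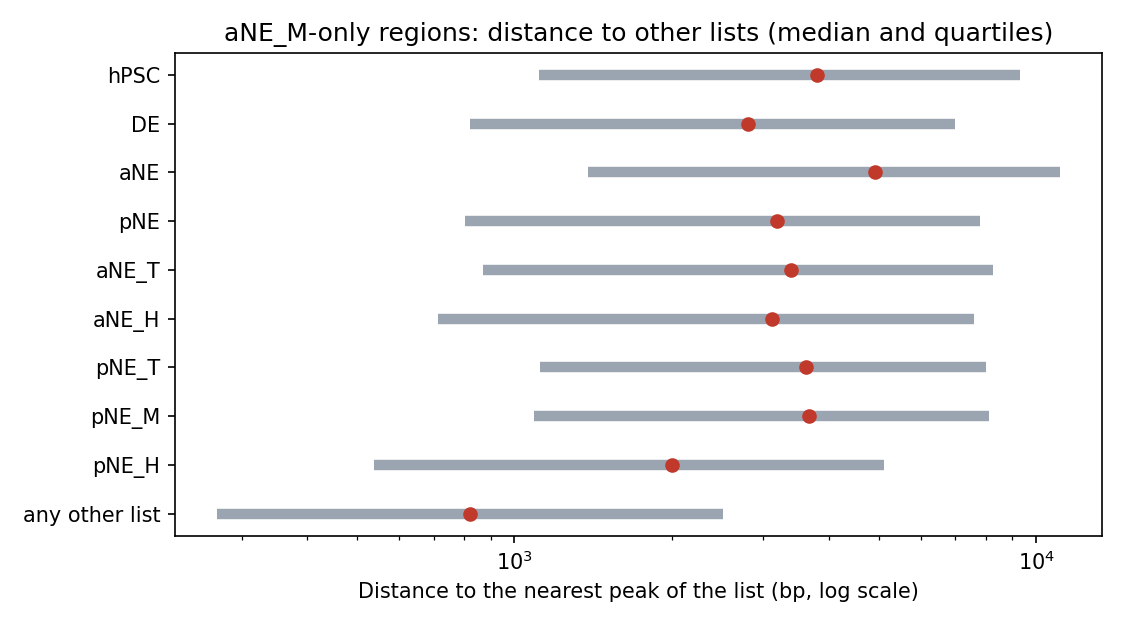
Distance in bp (log scale) from the 6117 aNE_M-only regions to the nearest peak of each other list and of any of them, as the median (point) and the quartiles (bar). The distance to any other list is centred on 822 bp, and among single lists pNE_H is nearest at 2007 bp and aNE farthest at 4906 bp.

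The boundary of the selection ran through dense chromatin. Just inside it, 5 regions touched a peak of another list without overlap and 77 stood 1 to 10 bp away, and 1112 (18.2%) were within 200 bp. Just outside it, 123 aNE_M peaks had a largest overlap with another list of 1 to 10 bp. Median widths on the 2 sides of the boundary were 151.5 bp for those touching or 1 to 10 bp away and 152 bp for those that overlapped by 1 to 10 bp.

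The regions were distal. Within 1 kb of the start or end of a protein-coding gene lay 2.81% (2.43 to 3.26) of them, against 9.75% (9.62 to 9.89) of the other regions open in aNE_M and 5.63% of all merged regions. This was near the 3.07% of aNE_T-only and 2.38% of aNE_H-only regions, and above the 1.96% (1.77 to 2.18) of pNE_M-only regions. Inside a coding gene lay 51.2% (49.9 to 52.4), close to the 51.0% of all merged regions. The share was 53.2% (53.0 to 53.5) of the other aNE_M regions, 53.8% (52.5 to 55.0) of aNE_T-only, 47.0% (46.0 to 48.1) of aNE_H-only and 44.6% (43.8 to 45.3) of pNE_M-only regions. The aNE_M-only regions thus lay between those of aNE_T and aNE_H.

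An annotated promoter window, from 250 bases before to 50 after a transcript start, was overlapped by 38 of the 5817 regions on the chromosomes with such windows (0.653%), against 8.11% of the other aNE_M regions. These 38 regions met 39 windows, 17 of coding genes and 22 of long noncoding RNAs. In 13 of the 39, among them those of DDR1, a collagen receptor kinase, CDH4, a neural cadherin, and ELF1, an ETS factor, the start in the table lay inside the gene and not at its outer end. No gene of the regional lists described below had an aNE_M-only region on its window.

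The promoters under the regions were poorer in GC than most. Their windows had a median GC content of 50% and 7 CpG pairs, against 65% and 25 in the 20445 other windows open in aNE_M and 58.7% and 14 in all 33725 windows. The sets also differed in gene type. Coding genes had 17 of the 39 windows, 15786 of the 20445 and 21156 of the 33725. Short motifs, 9 in all, were searched on both strands. Of the 39 windows, 23.1% (12.6 to 38.3) held CTTTGA, the core of TCF/LEF sites, against 12.9% of all windows. TAATCC, the core of OTX sites, was in 12.8% (5.60 to 26.7) against 6.37%, and AGGTCA, a nuclear receptor core, in 25.6% (14.6 to 41.1) against 13.8%.

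TAATTA, bound by LIM homeodomain and related factors, was in 1 window, 2.56% against 4.91%. ACAATG, a SOX core, was in 15.4% against 10.8%, GATAAG, the core of GATA factor sites, in 10.3% against 6.29%, and TGANTCA, the AP-1 core, in 12.8% against 7.67%. CAGCTG, an E-box, was in 20.5% against 18.0%, and AGGGGGC, part of the CTCF motif, in 5.13% (1.42 to 16.9) against 14.3%. None of these motifs contains another, though their matches can overlap. The intervals of 8 of the 9 shares held the value over all windows, and that of AGGTCA did not. The 20445 other windows open in aNE_M held CTTTGA in 8.94%, TAATCC in 4.68%, AGGTCA in 10.2%, ACAATG in 6.89% and TGANTCA in 4.96%. They held GATAAG in 3.92%, TAATTA in 2.42%, CAGCTG in 18.3% and AGGGGGC in 19.7%, and only the intervals of TAATTA and CAGCTG included these values. The 39 windows differ from both sets in GC content (medians above) and in the share of coding genes, so the shares are descriptions and do not show binding.

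Regional genes were examined through 10 lists of 139 genes, counting the regions between 50 kb before and 50 kb after each gene. The windows of the 24 midbrain and boundary genes held 962 merged regions, of which 498 (51.8%, 48.6 to 54.9) were open in aNE_M. In aNE_T 51.4% of them were open, in aNE_H 49.3%, in pNE_M 46.5% and in the precursor aNE 42.6%. DE was open at 54.9% of them, hPSC at 51.4%, pNE at 48.0%, pNE_T at 50.4% and pNE_H at 63.8%. Over the windows of all protein-coding genes aNE_M was open at 43.2% of regions, aNE_T at 40.5%, aNE_H at 40.1% and pNE_M at 41.1%. In the same windows DE was open at 50.4%, hPSC at 44.1%, aNE at 34.6%, pNE at 40.8%, pNE_T at 42.2% and pNE_H at 59.9%. The number of open regions at midbrain genes therefore did not set aNE_M apart from aNE_T or from undifferentiated cells. DE and pNE_H had more there, and had more over all coding genes as well. At the 12 pluripotency genes aNE_M was open at 46.4% and hPSC at 57.0% of 351 regions. Most genes of that list had fewer regions open in aNE_M than in hPSC, with 5 of 18 against 13 at POU5F1 and 12 of 28 against 19 at NANOG. PRDM14, DPPA4, CRIPTO, DNMT3B, LEFTY1 and LEFTY2 went the same way, and LIN28A had 20 of 31 in both. More were open in aNE_M at LIN28B (29 of 73 against 28), KLF4 (11 of 19 against 9) and SALL4 (16 of 31 against 11).

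Of the 962 regions around midbrain and boundary genes, 10 were open in aNE_M only, 1.04% (0.566 to 1.90), beside 1.28% (1.24 to 1.32) over the windows of all coding genes. When each region was given to its nearest gene instead, 16 were assigned to these genes. The same windows held 13 aNE_T-only regions (1.35%, beside 1.36% over all coding genes), 23 aNE_H-only (2.39%, beside 1.72%) and 18 pNE_M-only (1.87%, beside 3.15%). The share of exclusive aNE_M regions there was thus near that over all coding genes. They lay at 8 of the 24 genes: OTX2, DMBX1, PAX8, LMX1B, GBX2, CNPY1, MEIS2 and TAL2. At every gene with exclusive regions, the number open in aNE_M given below includes them. Their choice raises that number by construction.

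The nearest of them to gene starts were at DMBX1 and LMX1B. At DMBX1, a homeobox gene of the diencephalon and midbrain, a region of 182 bp at chr1:46490465-46490646 began 629 bp after the outer 5′ end of the gene, inside it. All 9 other lists had a peak within 350 bp of it, pNE at 170 bp being the nearest. Of the 39 regions in the DMBX1 window 24 were open in aNE_M, 25 in aNE_T, 23 in aNE_H and 21 in pNE_M. The exclusive region was thus a narrow addition beside an element open in every population.

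At LMX1B, a LIM homeobox gene of the boundary and of dopaminergic progenitors, a region of 201 bp at chr9:126612788-126612988 lay 940 bp before the gene, 93 bp from an aNE peak and 834 bp from a pNE_M peak. A further region of 141 bp at chr9:126744760-126744900 lay 130832 bp after the start, beyond the gene, 1044 bp from an aNE_H peak and 18405 bp from a pNE_M peak. Of the 58 regions in this window 39 were open in aNE_M, 36 in aNE_T and aNE_H, 31 in aNE and 30 in pNE_M. The number in aNE_M was exceeded only by pNE_H, with 40. It includes the 2 exclusive regions, which were chosen for being open in aNE_M, while aNE_T and aNE_H had no exclusive region there.

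At OTX2, which specifies forebrain and midbrain, the exclusive region of 122 bp at chr14:56845969-56846090 lay 35490 bp before the gene. Its nearest neighbours were an aNE peak at 771 bp and an hPSC peak at 804 bp, the pNE_M list was at 1485 bp and the pNE_T list at 9792 bp. Of 36 regions around OTX2, 17 were open in aNE_M, 16 in aNE_T and aNE_H, 12 in aNE and pNE, 14 in pNE_M, 11 in pNE_T, 17 in pNE_H, 19 in hPSC and 20 in DE. In telencephalon and midbrain media the anterior-derived lists had more open regions at OTX2 than the posterior-derived ones, and in hindbrain medium they did not.

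TAL2, a bHLH gene of midbrain GABAergic neurons, had a region of 148 bp at chr9:105655389-105655536, 6921 bp before its start and 376 bp from an hPSC peak. In its window 12 of 21 regions were open in aNE_M and in aNE_T, 14 in pNE_H, 11 in DE and 7 in pNE_M, the fewest. GBX2, expressed behind the boundary, had a region of 206 bp at chr2:236195868-236196073, 27482 bp before its start, with hPSC at 296 bp and aNE_H at 2543 bp. CNPY1, which aids FGF signalling at the boundary, had a region of 211 bp at chr7:155569125-155569335, 22566 bp before its start, with aNE_H at 291 bp and pNE_M at 20959 bp.

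PAX8, a paired box gene of the boundary and otic field, had a region of 179 bp at chr2:113306725-113306903, 27804 bp before its start and 34 bp from a pNE_T peak, and one of 170 bp at chr2:113176274-113176443. MEIS2, a TALE homeobox gene of the midbrain roof, had a region of 122 bp at chr15:37128480-37128601, 27169 bp before its start, and all other lists were at least 1793 bp away. Among these 10 regions it was the most distant from other open chromatin. None of the 10 covered a promoter window.

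Other genes of the midbrain and boundary had open chromatin in aNE_M but none that was exclusive to it. EN1, a homeobox gene of the midbrain and boundary, had 18 of 34 regions open in aNE_M, 19 in aNE_H and 15 in pNE_M, and 3 aNE_H-only regions. PAX2, a paired box gene of the boundary, had 36 of 69 regions open in aNE_M, 41 in aNE_H and 31 in pNE_M, with 4 aNE_H-only regions. WNT1, the signal of the boundary, had 17 of 26 open in aNE_M, aNE_T and aNE_H alike and 16 in pNE_M. FGF8, the organizer signal, had 12 of 25 open in aNE_M and aNE_H and 15 in aNE_T and pNE_M. No exclusive region of aNE_M was found at EN2, PAX5, LMX1A or SP5 either.

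**Figure D5:**
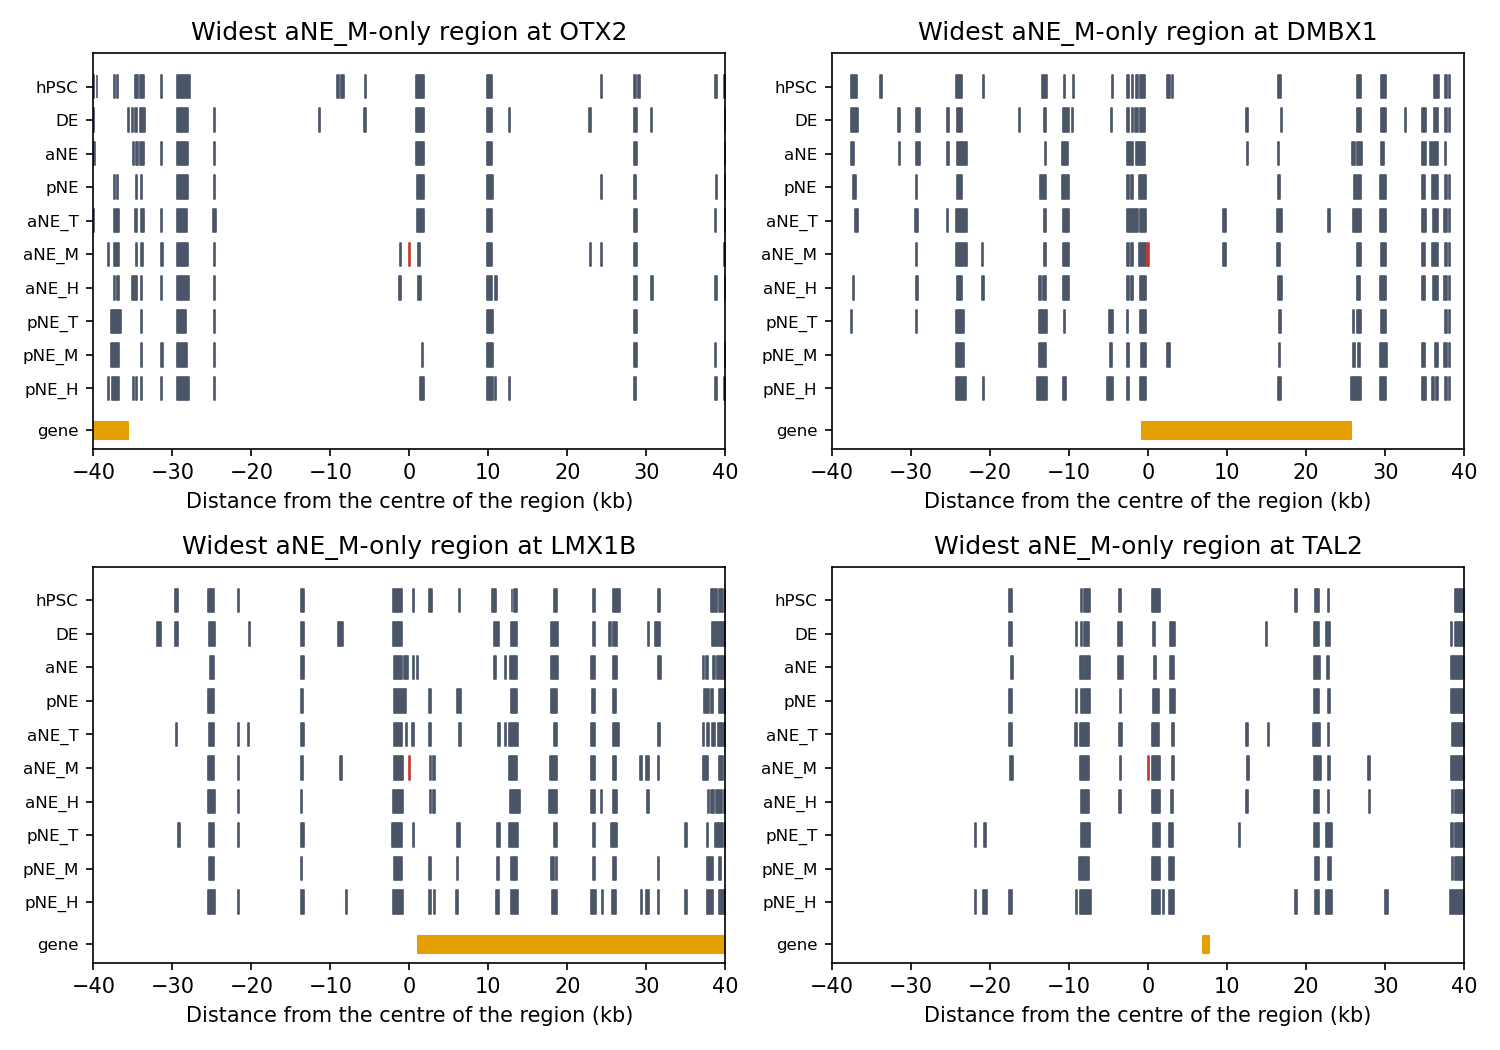
Peaks of the 10 lists (grey) within 40 kb of the widest aNE_M-only region (red) at OTX2, DMBX1, LMX1B and TAL2, with the gene in orange, plotted as distance in kb from the centre of the region along the chromosome. Each red mark is a narrow peak beside wider elements open in most lists, with the nearest other list 771 bp away at OTX2, 170 bp at DMBX1, 93 bp at LMX1B and 376 bp at TAL2.

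WNT response genes had 11 exclusive regions among 700, 1.57% (0.880 to 2.79), at 7 of 14 genes, beside 18 aNE_H-only regions. TCF7, a TCF/LEF factor gene, had a region of 146 bp at chr5:134107527-134107672, 546 bp before its start, with hPSC at 2268 bp and pNE_M at 5257 bp. At LEF1, the factor gene of the same family, 2 lay inside the gene, of 279 bp at chr4:108051434-108051712 and of 235 bp at chr4:108098050-108098284, beside 7 aNE_H-only regions and no pNE_M-only region. Of 72 regions in the LEF1 window 35 were open in aNE_M and 35 in aNE_H, 37 in pNE_T and pNE_H, 30 in DE, 25 in aNE_T and pNE_M, 24 in hPSC, 23 in pNE and 20 in aNE. The aNE list is also the lowest over the windows of all coding genes, with 34.6% of regions open against 43.2% in aNE_M.

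TCF7L2, also of that family, had 3 exclusive regions, of which one of 143 bp at chr10:112995458-112995600 stood 8 bp from a DE peak. NKD1, a WNT feedback inhibitor gene, had 2 inside the gene. LGR5, a receptor gene that amplifies WNT signals, DKK1, a secreted WNT antagonist gene, and CDX1, a caudal homeobox target gene, had 1 each. AXIN2, a common WNT target, had none, with 23 of 37 regions open in aNE_M, 24 in aNE_H, 25 in pNE_M, 27 in pNE_H, 18 in aNE_T and 15 in aNE.

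The telencephalon and eye field genes had 8 exclusive regions among 520, 1.54% (0.782 to 3.01), at 6 of 18 genes. LHX2, a LIM homeobox gene of forebrain and eye, had 3, and 28 of its 42 regions were open in aNE_M, the 3 included. The other lists had from 14 (pNE_T) to 25 (hPSC) open there, with 24 in aNE_T and in DE. SIX6, an eye field homeobox gene, had the widest of the 8, 306 bp at chr14:60561660-60561965, 23 bp from an aNE_T peak. OTX1, a paralogue of OTX2, LHX9, a LIM homeobox gene, and TBR1, a cortical T-box gene, had 1 each. RAX, a homeobox gene of the eye field, had none.

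The hindbrain and retinoic acid genes had 4 among 713, 0.561% (0.218 to 1.43). The same windows held 26 pNE_M-only regions, 3.65%, beside 3.15% over all coding genes. The 4 aNE_M-only regions lay in the windows of HOXA3, RARA, NR2F2 and FGF3. These are genes of a hindbrain homeobox factor, a retinoic acid receptor, a nuclear receptor and a growth factor. All 4 regions lay outside the gene. They were 38896 bp before the start of HOXA3, 96297 bp after that of RARA, 41504 bp after that of NR2F2 and 6540 bp before that of FGF3. At RARB, a retinoic acid receptor gene, 46 of 194 regions were open in aNE_M, 75 in pNE_M and 132 in pNE_H, and none was exclusive to aNE_M while 9 were exclusive to pNE_M. Windows of neighbouring HOX genes share regions, and each region was counted once per list.

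Pan-neural genes had 9 among 547, 1.65% (0.868 to 3.10), beside 18 pNE_M-only regions (3.29%). NCAM1, the neural cell adhesion molecule gene, held 5 of the 9, the most of any listed gene, and also 5 pNE_M-only regions. Of its 92 regions 46 were open in aNE_M, 49 in pNE_M and 31 in aNE_H. At SOX2, the neural progenitor factor gene, a region of 145 bp at chr3:181701227-181701371 lay 10554 bp before the start and 210 bp from an aNE_T peak. POU3F3, a neural POU factor gene, had one of 140 bp inside the gene, 1369 bp after the start, and NES and SOX11 had 1 each. SOX1, ZIC1, ZIC2, HES5 and CDH2 had none.

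Genes of other cell types had exclusive regions as well. The 12 pluripotency genes had 4 among 351 regions (1.14%), at LIN28A, LIN28B and KLF4. The 12 neural crest genes had 2 among 403 (0.496%), both at PAX3, which is also a gene of the dorsal neural tube. The 9 mesendoderm genes had 5 among 277 (1.81%), with 2 each at TBXT and GATA6, and the 8 surface ectoderm genes 2 among 338 (0.592%), at TFAP2C and GATA3. The 6 blood and endothelial genes, which mark lineages outside the neural plate, had 6 among 231, 2.60% (1.20 to 5.55), at PECAM1, CDH5, TAL1 and RUNX1. The 10 shares ran from 0.496% to 2.60%, and the interval of each included the 1.28% over all coding genes, so none stood apart from the background by counting error.

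Ranked without lists, the coding genes with the most exclusive regions by nearest start or end were mostly long, from 132785 bp (CDC73) to 2173362 bp (DLG2), apart from SOX11 at 9002 bp. ADGRL2, an adhesion receptor gene, had 12 among 428 regions and 154 open in aNE_M. CDH8, a neural cadherin gene, had 11, and DLG2, a synaptic scaffold gene, EFNA5, an ephrin gene, and AUTS2, a neurodevelopmental gene, had 10 each. CDC73, UBE2E2, IGSF11, SOX11 and NRG3 had 9 each. As a share of all regions these were 1.75% at AUTS2 to 4.69% at CDC73, beside 1.28% over all merged regions. The genes were picked by their number of exclusive regions, which raises these shares by construction. Several had more pNE_M-only regions, with 29 at CDH8, 22 at NRG3, 21 at ADGRL2, 20 at DLG2 and EFNA5 and 16 at AUTS2. At CDC73, UBE2E2, IGSF11 and SOX11 there were fewer, from 7 to 8. At CDH8 10 regions were aNE_H-only.

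By share, among coding genes with at least 10 regions, the first were LOC124905153 with 3 of 12 regions, SLC27A2, a fatty acid transport gene, with 3 of 13, DNM1L, a mitochondrial fission gene, with 3 of 14, and SIGLEC7, an immune lectin gene, with 2 of 10. BRWD1, PARK7, PLRG1 and PTH had 2 of 11 each, SLC5A3 3 of 17 and LRRC9 3 of 18. Each of these shares rests on 2 or 3 regions, and the ranking picks high shares by construction. None of the 10 is a regional gene of the neural plate lists.

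The exclusive regions were scattered over the genome. Of 18149 coding genes with a region, 14198 had none, 2730 had 1, 1096 had 2 to 4 and 125 had 5 or more. Those 125 genes held 755 of the regions, 12.3%. They also held 29221 of the 476170 merged regions and 5.75% of the regions open in aNE_M. The genes were picked by their number of exclusive regions, which raises that share by construction. The median distance between neighbours was 273413 bp and 2.90% of neighbouring pairs were within 10 kb. For aNE_T-only regions, which are nearly as many, these were 225663 bp and 4.01%, and the more numerous aNE_H-only and pNE_M-only regions had 4.50% and 10.5% of pairs within 10 kb. Of 2721 windows of 1 Mb, 425 held none and 7 held 9 or more, the most being 12 in the window from 85000001 to 86000000 on chromosome 16.

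By chromosome the share of aNE_M regions that were exclusive ran from 2.12% (1.75 to 2.56) on chromosome 19 and 2.38% (1.93 to 2.93) on chromosome 22 to 4.04% (3.28 to 4.95) on chromosome 21. The low value of chromosome 19 was shared by the comparison lists, with 2.53% of aNE_T, 2.48% of aNE_H and 3.22% of pNE_M regions exclusive there, each the lowest among the 22 chromosomes of its list. The high value of chromosome 21 was not the highest of aNE_T, aNE_H or pNE_M, and rested on 87 of 2156 regions.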

How the data were processed

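The values were peak start and end positions, deposited by the authors as 1 list per group with 3 columns and no header, score or summit. The 3 replicates of a group had been combined before deposit in a way not given in the sources used here, nor are the peak threshold and read depth. Per the submitters' processing notes the build was hg38 and the tools named were FastQC, Bowtie2, MACS2, bedtools, featureCounts, edgeR and deepTools, with no role or version. Peaks on chromosomes 1 to 22 were merged at 1 bp of overlap with Python 3.11.15, numpy 2.4.6 and pandas 2.3.3. Distances are the bases between a region and the nearest peak. Merging and distances were tested on simulated data. Gene positions came from RefSeq (GRCh38.p14, 18973 coding genes) and strands and promoter sequences from a RefSeq table of 33725 windows of 300 bases, which is not complete, so distances from a start are given only where it holds the gene. A start is the outer 5′ end of the gene except where promoter windows are described. All 139 list genes were matched, 1 by an older symbol. No genome sequence was used here, so motifs were searched in promoter windows only.

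Named genes were listed genes with an exclusive region, the 10 coding genes with the most, the 10 with the highest share among those with 10 or more regions, the 10 widest regions, and, since no listed gene had one at its promoter, the widest regions over a promoter. The genes without exclusive regions were named for comparison. The regions and gene lists were chosen with earlier results of these data known. With 1 list per group there was no replicate error and no test, and shares have Wilson intervals at 95%. Alternatives varied the overlap, list length, distance to other lists, peak width, peak extent, the lists included and the assignment to genes. Chromosomes X and Y, scaffolds and mitochondrial DNA were left out of the counts.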

Additional observations from a re-analysis of the deposited data

Results flagged for a closer look

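Outside the chromosomes analysed, aNE_M also had regions that no other list shared, which belong to data that the counts above leave out. Chromosome X held 187 aNE_M-only regions, 2.80% (2.43 to 3.22) of its 6683 regions open in aNE_M. The remaining sequences (Y, mitochondrial and scaffolds) held 199, 1.99% (1.74 to 2.29) of 9983. The first share is near the 3.08% of chromosomes 1 to 22 and the second is below it.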

How the results depend on the processing

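The number of aNE_M-only regions, 6117, ranged from 4361 to 9004 over 6 alternatives, within 1.5 times the value reported. A similar number does not mean the same regions, since leaving out peaks of the other lists makes further regions exclusive. The upper quartile of width of the 6117 was 191 bp, so most of the 4361 regions found with peaks of 200 bp or wider are not among them. As a percent of aNE_M regions the number moved from 3.08 to 3.61 when shared peaks had to overlap by 50%, 2.52 without a peak of another list within 200 bp, 2.40 with fixed windows of 500 bp and 4.49 without pNE_H. In that order of settings the share with an aNE_H region within 5 kb moved from 62.2% to 64.6%, 58.0% and 59.2%, and that with a pNE_M region from 59.0% to 60.9%, 55.8% and 57.2%. With the widest peaks at equal list length these were 69.1% and 62.4%, and with peaks of 200 bp or wider 73.8% and 64.5%. The median width moved from 152 to 154 bp at 50% overlap and without pNE_H, 215 bp at equal list length, 233 bp with peaks of 200 bp or wider and, by construction, 500 bp with fixed windows. The share within 1 kb of a gene start or end moved from 2.81% to 2.36% without a peak within 200 bp, 3.30% with wider peaks and 3.63% with fixed windows. The share inside genes moved from 51.2% to 49.7% without pNE_H. Regions at midbrain and boundary genes numbered 7 to 14 under the same 6 alternatives and 16 by nearest gene. Apart from the changes that a width limit or a fixed window brings by construction, the cause was not tested.

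No paired analysis was possible because the lists combine the 3 replicates of a group, and for the same reason no result was recomputed without a replicate. Depth per library is unknown.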
